A study of Mus musculus with 12 samples.

Results

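The comparison described here set mouse embryonic stem cells given the proteasome inhibitor MG132 against untreated cells grown in the same medium, on 3 arrays each, so that it used 6 of the 12 arrays and 2 of the 4 groups of the series. The members were chosen by their labels alone: the 3 arrays whose labels name MG132 without 4OHT, and the 3 arrays labelled untreated. The MG132 cells received 1 µM of the compound for 30 min and then for a further 6 h. The untreated cells were titled as 0 h, with neither a 6 h untreated group nor a vehicle named, so the effects of the compound and of the hours in culture cannot be told apart. Cells of both groups grew in stem cell medium with leukaemia inhibitory factor (LIF) and with 250 nM PD173074, an inhibitor of fibroblast growth factor (FGF) receptors. All changes below were thus measured on top of that inhibitor. The remaining groups, which received 250 nM 4OHT for 6 h with or without MG132, entered only a second comparison near the end. Per the series' design text each group holds 3 biological replicates, but the labels do not say which cultures they came from, and the p-values measure the spread between these arrays.

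The proteasome is the protease complex that degrades proteins marked with ubiquitin chains. It is built from a 20S core, which holds the proteolytic sites, and a 19S regulatory particle, which binds and unfolds the marked proteins. MG132 is a peptide aldehyde that blocks the core reversibly. Proteins with a short life, among them p53, ATF4 and the unprocessed form of the transcription factor NRF1 (encoded by Nfe2l1), are known to build up when the complex is blocked, and misfolded proteins are known to free the heat shock factor HSF1 to act. In embryonic stem cells the proteasome also turns over regulators of pluripotency. The arrays measured RNA, so neither proteasome activity nor any protein level was observed.

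Each value is a level, the log2 processed intensity of a probe minus the 75th percentile of its array. A level of 0 therefore equals the 75th percentile, and levels of different genes are not comparable, because probes differ in how well they bind. A change is the mean level of the MG132 arrays minus that of the untreated arrays, given with its standard error (SE) and n = 3 arrays per group. A gene is said to have risen, fallen or changed where limma's Benjamini-Hochberg adjusted p over all 26034 genes tested lay under 0.05. A fold marked "at least" is a lower bound for a gene that was not well above background on any array of the dimmer group. It is the bright group's mean over the dim group's mean of, per array, the higher of the gene's own signal and the lowest signal well above background. Between 55.3% and 63.2% of probes lay well above background on each of the 6 arrays. The precision is limited by how many arrays there are.

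The cells carried the expression of embryonic stem cells. All 10 stem cell markers, among them Pou5f1, Sox2, Nanog and Zfp42, were well above background on all 6 arrays. All 10 also fell with MG132. Their summed level, in multiples of each array's 75th percentile, lay between 1344 and 1392 on the untreated arrays and between 756 and 790 on the MG132 arrays. Markers of other cells were measured beside them. Each sum follows its genes of highest level, and since levels of different genes are not comparable, sums of different cell types are not either. The 11 primitive endoderm markers were above background on all 6 arrays, with a summed level of 197 to 284 in untreated and 179 to 259 in MG132 cells. Most of this sum came from secreted matrix genes, at levels of 4.96 to 7.82. The transcription factors among these markers lay below 0 on every array. The 9 fibroblast or feeder cell markers summed to 2.58 to 3.44 in untreated and 5.45 to 5.87 in MG132 cells. Among them 5 were above background on all arrays, and Col3a1 and Lum on none. Thy1, a surface glycoprotein and the largest term of the sum, went from 1.05, 1.14 and 1.5 to 2.40, 2.35 and 2.21, a rise of 1.09 ± 0.14. Col1a1, a collagen gene, rose by 1.93 ± 0.31 (adjusted p = 0.0029), and Twist1, a mesenchymal factor, fell by 0.44 ± 0.13, a call that several alternatives lost. The 7 trophoblast markers summed to 0.548 to 0.788 and 0.835 to 1.13, with the defining genes Cdx2, Elf5 and Tpbpa above background on none. Krt7, a keratin, rose by 2.20 ± 0.19 and Eomes, a T-box factor, by 0.78 ± 0.16. The 5 neural markers summed to 2.63 to 2.73 and 1.63 to 2.64, and 2 of them fell, among them Pax6. The part of any such cells in the results was not tested. In bulk RNA, fewer cells of a type and less RNA per cell cannot be told apart.

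Arrays of one group were close to each other, with correlations across genes of 0.993 to 0.997 among untreated and 0.988 to 0.994 among MG132 arrays, against 0.961 to 0.969 between the groups. The replicate 3 arrays deviated most in both groups. The number of genes that lay over 1 log2 unit from the mean of the other two arrays was 503 for untreated replicate 3 against 217 and 256 for the others, and 799 for MG132 replicate 3 against 281 and 517. MG132 replicate 3 was also the only one of the 6 arrays on slide 2. Untreated replicate 3 lay on slide 1, like the other untreated arrays, and the deviations of both replicate 3 arrays correlated at 0.37. Within the MG132 group deviation and slide cannot be told apart, and the part of the slide was not tested. Without replicate 3 of both groups, a setting chosen after these counts were seen, 13620 genes changed, with 6980 higher and 6640 lower.

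MG132 went with changes in a large share of the measured genes. Of the 26034 genes tested, 12616 (48.5%) passed the threshold, 6507 higher (25%) and 6109 lower (23.5%). These shares are the background against which each list below is read, as is the median change over all genes, 0.01. Large changes were mostly rises. At 2-fold or more, 2845 genes were higher and 1356 lower, at 4-fold or more 777 and 133, and at 8-fold or more 247 and 10. Where no member of a list below rose, limma's unadjusted p under 0.05 gave 0 higher members too, except 1 mitotic gene. In 15587 genes (59.9%) the MG132 arrays did not overlap the untreated ones.

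The direction of change went with the level of the gene. Among the 2928 genes whose mean level over the 6 arrays lay below -4, 26.3% rose and 12% fell. Among the 3176 genes above 4, 13.4% rose and 37.4% fell. The shares crossed between the levels -2 and 2, where 30.7% rose and 21.4% fell below 0, and 22.1% rose and 31.6% fell above it. The median change went from 0.19 in genes at levels from -4 to -2 to -0.15 in genes above 4. The shares over all genes are not matched to the levels of a list. For a list of genes at high levels, the shares at those levels are the closer background. These splits depend on how arrays are scaled. With arrays centred on their median in place of the 75th percentile, the median change over all genes was -0.29 and the calls were 4031 higher and 10471 lower, so that 27.8% of the called genes were higher against 51.6% in the first scaling. The scaling thus sets the zero from which rises and falls are counted, and small changes near it are called by it.

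The size of change of dim genes depended on the background correction. With normexp (offset 50), which draws dim signals together by its offset, 42 of the 167 named genes had a change that differed by over 1.5 times from the one given here, and all 42 moved nearer to 0. None of them changed direction. With it the change of Fosl1 was 2.57, of Atf3 3.33, of Plk2 2.72 and of Osgin1 1.36. Egr1 had -2.39, Spry4 -0.89, Smad6 -1.24, Zic2 -1.37 and Zic5 -0.90. Among genes of lower level, Dnaja4 had 1.08, Dusp2 1.58, Cdkn2b 2.78, Fgf5 0.41, Adm 0.43, Hsf4 0.17, Krt7 0.81, Col1a1 0.65 and Pax6 -0.97. Genes given by a bound were among those that moved nearer to 0: Slc7a11 had 0.89, Fas 1.68, Osmr 0.41 and Birc3 -0.29. For them "at least" holds for the processed signal and not for this correction.

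**Figure D1:**
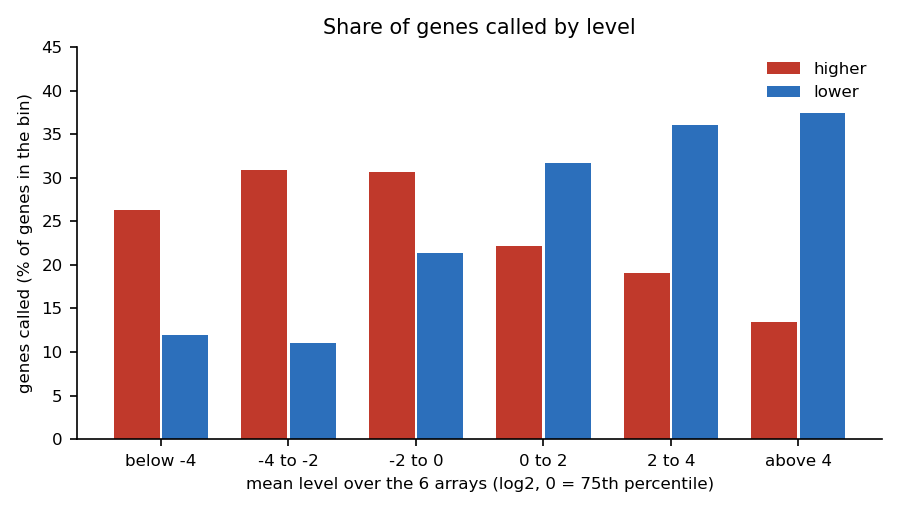
Share of genes called higher (red) or lower (blue) with MG132, in percent of the genes in each bin, against the mean level over the 6 arrays (log2, 0 = 75th percentile). Higher calls are the more frequent in the 3 bins below 0 and lower calls in the 3 bins above it, up to 37.4% above a level of 4.

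The inducible HSP70 chaperones rose more than any other chaperone measured. HSP70 proteins bind exposed hydrophobic stretches of unfolded proteins, and Hspa1a and Hspa1b are their stress-induced genes. Hspa1a lay at -0.17, -0.21 and -0.21 on the untreated arrays and at 4.24, 4.36 and 4.84 on the MG132 arrays. Every MG132 array was far above every untreated one, and the change was 4.67 ± 0.16, or 25.5-fold (limma, adjusted p = 3.2e-05). Hspa1b, at 0.25, 0.34 and 0.60 untreated and 4.04, 4.01 and 4.54 with MG132, rose by 3.80 ± 0.18. The 2 genes are nearly identical in sequence, and how far their probes tell them apart is uncertain. Hspa2, a testis-enriched HSP70, rose by 1.03 ± 0.09. The constitutive Hspa8 went from between 8.47 and 8.49 to between 8.99 and 9.11, a rise of 0.58 ± 0.08. The fall of Hspa4, an HSP110-type exchange factor, was small at -0.45 ± 0.10. Of 14 members of the HSP70 list, 5 rose and 2 fell, with a median of 0.08, which turned to -0.23 with median centring, where 5 rose and 5 fell.

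J-domain proteins hand unfolded proteins to HSP70 and start its ATPase cycle. Dnajb1, the stress-induced one, lay at 4.78, 4.75 and 4.75 in untreated and 6.11, 6.03 and 6.01 in MG132 cells. The groups were apart, and the rise was 1.29 ± 0.08 (adjusted p = 0.00012). Dnaja4 rose by 1.82 ± 0.13 and Dnajb2, which binds ubiquitin chains, by 1.46 ± 0.16. Dnajc9, a co-chaperone of histones, rose by 1.34 ± 0.10. Dnajb14, anchored in the endoplasmic reticulum (ER), fell by 1.24 ± 0.09. Over the list 8 of 20 rose and 4 fell (median 0.18, or -0.12 with median centring, where 5 rose and 7 fell). Among 7 small heat shock proteins, which hold unfolded proteins without ATP, 4 rose and 1 fell (median 0.41, and 0.10 with median centring). The lower one, Hspb1, was called in no fit that left out an array. Cryab, encoding alpha-B crystallin, went from 0.45, 0.30 and 1.03 to 2.36, 2.29 and 2.95, a rise of 1.94 ± 0.25.

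Of 19 genes of the HSP90 list, which holds HSP90, its co-chaperones and the heat shock factors, 4 rose and 5 fell (median -0.03). Their shares, 21.1% and 26.3%, were near the 25% and 23.5% of all genes. Without untreated replicate 2, 2 rose. Hsf4, a heat shock factor, rose by 0.77 ± 0.12. Of 14 subunits of the chaperonin CCT, which folds actin and tubulin, and of prefoldin, which delivers to it, none rose and 6 fell (median -0.14). Cct3 fell by 0.60 ± 0.08 and Pfdn5 by 0.84 ± 0.08. Of 13 mitochondrial chaperones and proteases none rose and 6 fell (median -0.27). Trap1, the mitochondrial HSP90, went from 3.77, 3.76 and 3.74 to 3.25, 3.22 and 3.06. Its fall was -0.58 ± 0.09. In a fit over all 12 arrays with slide and replicate as blocks, 3 CCT or prefoldin genes and 3 mitochondrial genes fell.

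The heat shock element searched for, which is GAA, TTC and GAA with 2 bases of any kind after each of the first pair, was found on either strand in the promoter window of 3 of 48 genes (6.25%) of the heat shock protein lists, against 0.662% of the 27025 genes with a RefSeq window, which runs from 250 bases before to 50 after the start site. Of the 15 among these 48 that rose, 1 held the element (6.67%), Dnajb6, with a change of 0.39. Dnajb1 was searched and held no exact match. Looser forms of the element and sites outside the window were not searched, so a gene without a match is not shown to lack such an element. Over the 12370 genes tested with a window the share was 0.582%. A match is a description of letters and not of binding.

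**Figure D2:**
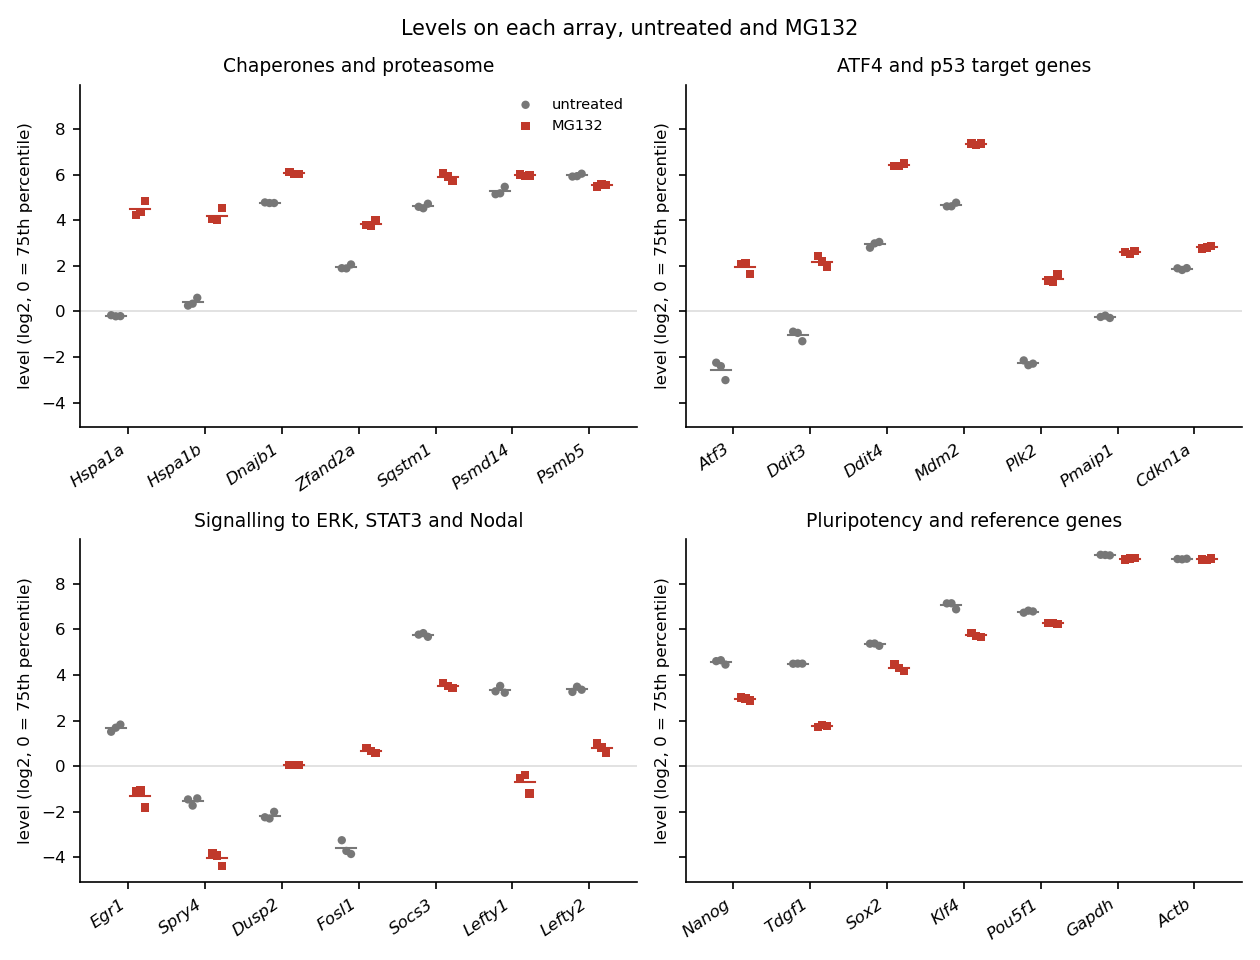
Level on each array (log2, 0 = 75th percentile of the array) of 28 genes in 4 panels, untreated as grey circles and MG132 as red squares, with bars for group means; levels are comparable within a gene, not between genes. Hspa1a, Atf3 and Fosl1 rise by over 4 log2 units, Lefty1 falls by 4.04 and Gapdh and Actb change by -0.16 and -0.01.

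RNAs of the proteasome itself changed little as a set. Of 16 subunits of the 20S core, 1 rose and 3 fell (median -0.10), and of 20 subunits of the 19S particle, 4 rose and 2 fell (median -0.01). Psmd14, the deubiquitinase of the 19S lid, lay at 5.14, 5.18 and 5.47 in untreated and 6.0, 5.94 and 5.96 in MG132 cells. All MG132 arrays were above the untreated ones, and the rise was 0.70 ± 0.11 (adjusted p = 0.0029). Psmb5, which carries the chymotrypsin-like site that MG132 blocks best, went from 5.92, 5.93 and 6.04 to 5.48, 5.56 and 5.55, a fall of -0.43 ± 0.08 that was not called after quantile normalization. The immunoproteasome subunits moved apart. Psmb9 rose by 1.33 ± 0.17 and Psmb10 fell by 1.14 ± 0.08. These counts followed the arrays and the scaling closely. Leaving out untreated replicate 2 left 2 higher and 0 lower 19S subunits. Without untreated replicate 1 there was 1 lower 19S subunit, and without untreated replicate 3, MG132 replicate 1 or MG132 replicate 2 there was none. Without any single array other than MG132 replicate 1, 2 core subunits fell. Quantile normalization gave 9 higher and 0 lower 19S subunits and median centring 1 and 9, and the medians of both lists ranged over 0 (20S -0.41 to 0.09, 19S -0.31 to 0.19).

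Factors around the proteasome moved more. Zfand2a, a zinc finger protein known to join the 19S particle under arsenite, lay at 1.90, 1.89 and 2.06 in untreated and 3.79, 3.74 and 3.99 in MG132 cells. Each MG132 array was above each untreated one by over 1.5 log2 units, and the change was 1.89 ± 0.11, or 3.72-fold (adjusted p = 9.6e-05). Psmf1, which encodes the proteasome inhibitor PI31, rose by 1.27 ± 0.14, and Psme1, a subunit of the PA28 activator, fell by 0.91 ± 0.09. Nfe2l1 went from 3.89, 3.98 and 4.03 to 4.43, 4.44 and 4.17, a rise of 0.38 ± 0.11 (adjusted p = 0.027) that some settings lost. Of 16 activators and assembly factors 5 rose and 7 fell (median -0.28). Without untreated replicate 1, untreated replicate 2 or MG132 replicate 2, 3 rose.

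Ubb, a polyubiquitin gene, rose by 0.34 ± 0.08, a call that was lost with median centring, without a filter on dim probes, and without untreated replicate 1, untreated replicate 2 or MG132 replicate 2. Since ubiquitin genes repeat the same coding sequence, how far the probes separate them is uncertain. Of 32 E2 enzymes, which carry activated ubiquitin to its target, 3 rose and 10 fell (median -0.12). That is 31.2% lower, against 23.5% of all genes and 31.6% to 37.4% of genes in the bins above a level of 0. The list was not matched by level. The largest fall was that of Ube2c, the mitotic E2 of the anaphase promoting complex, by 1.23 ± 0.08. Leaving out untreated replicate 1, untreated replicate 2, MG132 replicate 1 or MG132 replicate 3 left 1 higher E2, and leaving out MG132 replicate 2 left 6 lower.

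Sqstm1 rose, whereas its list moved both ways. Sqstm1, encoding p62, which gathers ubiquitinated proteins into bodies for autophagy, lay at 4.59, 4.53 and 4.72 in untreated and 6.07, 5.92 and 5.75 in MG132 cells. The groups did not overlap and lay apart by over 1 log2 unit, and the rise was 1.30 ± 0.11 (adjusted p = 0.00035). Nploc4, a cofactor of the segregase p97, rose by 1.13 ± 0.08. Of 29 p97 cofactors, shuttles and receptors, 6 rose and 7 fell (median 0.08, and -0.22 with median centring). Their shares, 20.7% and 24.1%, were near the 25% and 23.5% of all genes. Of the 29, 3 rose without untreated replicate 2, and 10 without replicate 3 of both groups. Of 24 autophagy genes 10 rose and 7 fell (median 0.24, or -0.06 with median centring, where 4 rose). Atg12, a ubiquitin-like conjugation factor, rose by 1.40 ± 0.14 and Gabarapl1, a coat protein of autophagosomes, by 1.12 ± 0.10. Tfeb, the master transcription factor of lysosomal genes, went the other way, from 1.42, 1.41 and 1.57 to -0.42, -0.21 and -0.03, a fall of -1.68 ± 0.12.

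Targets of ATF4 rose as a group. ATF4 is the transcription factor that is translated when eIF2 alpha is phosphorylated in the integrated stress response, and the proteasome degrades it quickly. Of 28 measured list members 21 rose and 1 fell, with a median change of 1.22 that stayed between 0.82 and 1.42 over the alternatives. Without replicate 3 of both groups 23 rose. Atf3, a repressor of the same bZIP class, lay at -2.25, -2.40 and -3.01 in untreated and 2.07, 2.14 and 1.64 in MG132 cells. Replicate 3 was the lowest of both groups, the groups were far apart, and the change was 4.50 ± 0.24, or 22.7-fold (adjusted p = 8.1e-05). Ddit3, encoding the pro-apoptotic factor CHOP, went from -0.89, -0.94 and -1.31 to 2.42, 2.19 and 1.95, a rise of 3.23 ± 0.17. Ddit4, encoding the mTORC1 inhibitor REDD1, went from 2.79, 2.98 and 3.05 to 6.37, 6.37 and 6.50, a rise of 3.47 ± 0.10, or 11.1-fold. The stress cytokine Gdf15 went from -0.81, -0.64 and -1.11 to 2.53, 2.38 and 2.20. The RNA of Atf4 itself, at 6.99, 7.03 and 6.51 against 7.50, 7.43 and 7.17, rose by only 0.52 ± 0.17 (adjusted p = 0.044), and several settings lost that call. Ndrg1, a differentiation and hypoxia gene, was the member that fell, by 0.63 ± 0.13.

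Amino acid supply is a known output of ATF4. Slc7a11, the cystine transporter, was above background on no untreated array and on all MG132 arrays, where it lay at -2.53, -2.37 and -3.13. It was at least 5.62-fold higher (adjusted p = 0.00032). Slc6a9, a glycine transporter, lay at 1.03, 1.12 and -0.69 in untreated and 3.96, 3.89 and 2.60 in MG132 cells, a rise of 2.99 ± 0.59. Replicate 3 was far below the others in both groups. Slc7a1, a cationic amino acid transporter, rose by 1.35 ± 0.13. Of 15 transporters 7 rose and 1 fell, the arginine transporter Slc7a3 (-0.77 ± 0.19), with a median of 0.28 that was -0.02 with median centring. Without untreated replicate 2 none fell. Of 20 cytosolic tRNA synthetases, which load amino acids on their tRNAs, 7 rose and 5 fell (median 0.02, and -0.28 with median centring). Cars rose by 1.38 ± 0.20 and Nars by 1.14 ± 0.16. Without any single array other than MG132 replicate 3, 4 synthetases rose, and without untreated replicate 2 or MG132 replicate 2 the lower ones were 1 and 3. Not every classical target moved. Asns, asparagine synthetase, was at 7.02, 7.06 and 6.84 in untreated and 7.12, 6.99 and 6.76 in MG132 cells. Its groups overlapped (change -0.01 ± 0.12, adjusted p = 0.94).

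The promoters of several of these genes hold the composite element that ATF4 binds with a C/EBP partner, searched for as TGATGNAA on both strands. It was present in 9 of 24 genes of the ATF4 list with a window (37.5%), in 7 of the 19 among them that rose (36.8%), and in 4.51% of all 27025 genes with a window. Over the 12370 genes tested with a window, from which the higher and lower genes come, the share was 3.01%. Over the 2969 higher genes with a window the share was 3.87%, and over the 3397 lower ones 2.38%. The stretches below, from RefSeq (GRCm38.p6), run 5′ to 3′ on the strand of the gene, with the element in capitals and up to 40 bases on either side, all upstream of the start site. They are shown because genes with the same element differed in change: Atf3, Slc7a11, Chac1 and Nupr1 rose and Asns did not pass the test.
Atf3, chr1:191183396-191183483, minus strand: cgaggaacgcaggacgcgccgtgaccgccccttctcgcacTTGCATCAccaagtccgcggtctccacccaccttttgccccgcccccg
Slc7a11, chr3:50443614-50443719, minus strand: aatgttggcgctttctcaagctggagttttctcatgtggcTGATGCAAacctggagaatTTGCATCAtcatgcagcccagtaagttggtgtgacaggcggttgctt
Chac1, chr2:119351009-119351096, plus strand: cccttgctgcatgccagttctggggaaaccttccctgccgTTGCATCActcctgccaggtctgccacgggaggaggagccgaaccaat
Nupr1, chr7:126625533-126625620, minus strand: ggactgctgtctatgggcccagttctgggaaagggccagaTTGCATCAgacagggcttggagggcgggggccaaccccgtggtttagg
Asns, chr6:7693210-7693272, minus strand: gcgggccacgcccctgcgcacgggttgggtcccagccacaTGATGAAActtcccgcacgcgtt
The stretch of Slc7a11 holds 2 matches. Chac1, a glutathione-degrading enzyme, went from 1.73, 1.72 and 0.0 to 3.52, 3.31 and 2.65 (2.0 ± 0.51, adjusted p = 0.018). Nupr1, a stress-induced nuclear protein, went from 2.41, 2.37 and 0.71 to 4.31, 4.23 and 3.47 (2.17 ± 0.50, adjusted p = 0.013). In both genes replicate 3 was lowest in both groups, and the untreated and MG132 arrays did not overlap.

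Genes of the ER moved less than those of the integrated stress response. In the unfolded protein response, the sensors IRE1, PERK and ATF6 raise ER chaperones and the machinery that exports misfolded proteins to the proteasome. Of 27 list members 7 rose and 2 fell (median 0.13, and -0.17 with median centring, where 2 rose and 5 fell). The higher share of 25.9% was near the 25% of all genes, and 7.41% fell against 23.5% of all genes. The count was sensitive to single arrays: 4 rose without untreated replicate 1, untreated replicate 2, MG132 replicate 1 or MG132 replicate 2, and 12 without replicate 3 of both groups. Without untreated replicate 2, untreated replicate 3, MG132 replicate 2 or MG132 replicate 3, 1 fell. Herpud1, which organises the export complex, lay at 1.09, 1.22 and 0.78 in untreated and 2.67, 2.57 and 1.87 in MG132 cells and rose by 1.34 ± 0.24. Selenok, a selenoprotein of the ER membrane, fell by 0.81 ± 0.10. The promoters of 3 chaperone genes hold the ER stress response element, searched for on both strands as CCAAT and CCACG with 9 bases of any kind between them, and present in 9 of 23 list genes (39.1%) against 0.137% of all genes with a window. They are printed in the same way because their genes share the element and not the size of change.
Hspa5, chr2:34771985-34772083, plus strand: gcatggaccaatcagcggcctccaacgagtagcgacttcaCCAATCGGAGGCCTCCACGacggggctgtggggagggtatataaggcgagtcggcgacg
Canx, chr11:50325760-50325858, minus strand: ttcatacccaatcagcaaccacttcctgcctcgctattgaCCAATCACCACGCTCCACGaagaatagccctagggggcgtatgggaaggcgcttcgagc
Hsp90b1, chr10:86705493-86705694, minus strand: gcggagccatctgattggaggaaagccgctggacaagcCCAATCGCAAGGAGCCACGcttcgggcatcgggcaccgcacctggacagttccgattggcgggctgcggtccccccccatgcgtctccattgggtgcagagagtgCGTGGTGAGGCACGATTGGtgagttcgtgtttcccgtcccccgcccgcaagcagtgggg
Canx, calnexin, a lectin chaperone of glycoproteins, rose by 0.89 ± 0.10 (adjusted p = 0.00066), from between 5.57 and 5.72 to between 6.4 and 6.59. Hspa5, encoding BiP, the HSP70 of the ER, lay at 6.21, 6.21 and 6.50 in untreated and 7.0, 6.90 and 6.53 in MG132 cells (0.50 ± 0.16, adjusted p = 0.038). MG132 replicate 3 was only just above the highest untreated array, and several alternatives lost the call. Hsp90b1, the ER HSP90, whose window holds the element on both strands, lay at 6.68 to 6.84 in untreated and 6.75 to 6.99 in MG132 cells, with overlapping groups (0.13 ± 0.10, adjusted p = 0.33).

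Antioxidant genes moved in both directions. NRF2 is held down by KEAP1 and the proteasome and raises enzymes of glutathione and thioredoxin metabolism. Of 26 list members 10 (38.5%) rose and 5 (19.2%) fell, against 25% and 23.5% of all genes. The median was 0.20, and -0.10 with median centring, where 5 rose and 8 fell. Osgin1, an oxidative stress-induced growth inhibitor, lay at -3.64, -3.97 and -4.06 in untreated and -0.94, -0.94 and -1.31 in MG132 cells. Both groups stood apart by over 2 log2 units, and the change was 2.83 ± 0.16, or 7.10-fold. Hmox1, haem oxygenase, rose by 0.91 ± 0.11 and Gsta4, a glutathione transferase for lipid aldehydes, fell by 1.62 ± 0.09. Slc7a11 belongs to this list as well. The metallothioneins, which buffer zinc and copper, were lower: Mt1 went from 8.31, 8.33 and 7.73 to 7.18, 7.08 and 6.21 and Mt2 from 8.85, 8.85 and 8.42 to 7.85, 7.79 and 6.97. Replicate 3 was again lowest in both groups, and Mt1 fell by 1.30 ± 0.30 and Mt2 by 1.17 ± 0.26. Of 6 metal response genes 0 rose and 3 fell.

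Targets of p53 made up the list with the highest median. MDM2 is the ligase that sends p53 to the proteasome and is itself a p53 target. Of 29 measured targets 22 (75.9%) rose and 2 fell, with a median change of 1.44 that stayed between 1.14 and 1.58 over the alternatives. Mdm2 lay at 4.61, 4.61 and 4.77 in untreated and 7.36, 7.30 and 7.36 in MG132 cells. The 6 arrays fell into 2 tight groups, and the change was 2.68 ± 0.09, or 6.39-fold (adjusted p = 2.9e-05). Plk2, a polo-like kinase, went from -2.15, -2.36 and -2.29 to 1.36, 1.29 and 1.64, a rise of 3.70 ± 0.12. Ddit4l, a relative of Ddit4 that also restrains mTORC1, went from -0.63, -0.64 and -0.94 to 3.81, 3.58 and 3.30, a rise of 4.30 ± 0.16, or 19.6-fold. Perp, a desmosomal effector of apoptosis, rose by 2.97 ± 0.13. Fas, the death receptor, was above background on no untreated array and was at least 18.2-fold higher, at -1.05, -1.28 and -0.60 with MG132. Cdkn1a, encoding the cyclin kinase inhibitor p21, rose less, from 1.89, 1.82 and 1.90 to 2.76, 2.80 and 2.86 (0.94 ± 0.08, adjusted p = 0.00031). The RNA of Trp53 itself, at 3.22, 3.25 and 3.17 against 2.90, 2.99 and 2.69, was lower by a small margin (-0.35 ± 0.10, adjusted p = 0.033), as was Rrm2b, a ribonucleotide reductase subunit (-0.38 ± 0.13). These 2 lower calls were fragile. The lower members numbered 0 without untreated replicate 1, untreated replicate 2 or MG132 replicate 1, and 1 without untreated replicate 3, MG132 replicate 2 or MG132 replicate 3.

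Regulators of cell death changed in both directions. In the BCL2 family, which controls the permeability of the outer mitochondrial membrane, 5 of 17 rose and 6 fell (median 0.02, and -0.28 with median centring). These are 29.4% and 35.3%, against 25% and 23.5% of all genes. The pro-apoptotic genes that carry only the BH3 motif split. Pmaip1, encoding NOXA, went from -0.24, -0.18 and -0.29 to 2.62, 2.51 and 2.65, a rise of 2.83 ± 0.08 with groups far apart. Hrk rose by 2.37 ± 0.39 and Bbc3, encoding PUMA, by 1.25 ± 0.14. Bnip3, a mitophagy receptor and hypoxia gene, went the other way, from 4.86, 4.90 and 4.51 to 1.99, 1.85 and 1.11, a fall of -3.11 ± 0.25, or 8.62-fold. Bmf fell by 1.45 ± 0.20. Of 21 caspases, death receptors and inhibitors 7 (33.3%) rose and 8 (38.1%) fell (median 0.11, and -0.19 with median centring). Neither list was matched by level. Apaf1, the scaffold of the apoptosome, rose by 1.93 ± 0.17, and Birc3, an inhibitor of apoptosis, was at least 2.31-fold lower, being above background on no MG132 array.

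The AP-1 family rose in part, while other immediate-early genes split. AP-1 factors are dimers of FOS, JUN and ATF proteins that respond to mitogens and to stress kinases. Fosl1 lay at -3.25, -3.72 and -3.85 in untreated and 0.80, 0.66 and 0.57 in MG132 cells. The MG132 and untreated arrays were apart by over 3 log2 units, and the change was 4.28 ± 0.17, or 19.5-fold (adjusted p = 3.9e-05). Jun went from 0.49, 0.41 and -0.27 to 2.37, 2.51 and 1.86, a rise of 2.04 ± 0.26. Junb fell by 1.23 ± 0.15, and Fos did not pass the test (0.09 ± 0.08, adjusted p = 0.40). Of 14 family members 6 rose and 2 fell (median 0.54, and 0.24 with median centring). Without untreated replicate 1, 2 or 3 or MG132 replicate 2 the lower count was 1.

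Egr1, an immediate-early gene induced through ERK and the serum response factor, fell. It lay at 1.51, 1.69 and 1.82 in untreated and -1.11, -1.07 and -1.81 in MG132 cells. All MG132 arrays were far below the untreated ones, with replicate 3 lowest, and the change was -3.0 ± 0.22, an 8.02-fold fall (adjusted p = 0.00019). Myc, a growth regulator, went from 2.03, 2.15 and 2.55 to 1.07, 1.11 and 0.46 (-1.36 ± 0.22). Ier5, a co-activator of HSF1, rose by 1.75 ± 0.14. Of 28 immediate-early genes outside AP-1 6 (21.4%) rose and 10 (35.7%) fell, against 25% and 23.5% of all genes (median -0.06). Of 23 genes of negative feedback on ERK and targets of ETS factors, 5 rose and 11 fell (median -0.28), and 3 rose without MG132 replicate 2. Spry4, an inhibitor of receptor signalling, went from -1.46, -1.73 and -1.41 to -3.81, -3.92 and -4.39 (-2.51 ± 0.18). Etv1, an ETS factor, fell by 1.57 ± 0.12 and Dusp6, the cytoplasmic ERK phosphatase, by 0.77 ± 0.21, a call that several alternatives lost. Dusp2, a nuclear phosphatase of ERK, went the other way, from -2.24, -2.30 and -2.0 to 0.05, 0.04 and 0.06 (2.23 ± 0.10), with the 3 MG132 arrays almost equal. Since FGF receptors were inhibited in both groups, these levels were those under the inhibitor.

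Pluripotency genes fell as a group. NANOG, ESRRB, KLF and TBX factors form the network that keeps stem cells in the naive state under LIF, on top of the general factors OCT4 and SOX2. Of 21 naive genes, 1 rose and 17 (81.0%) fell, and their median of -0.90 stayed between -1.21 and -0.77 over the alternatives. Of 19 general pluripotency genes 17 (89.5%) fell and 0 rose (median -0.73, from -1.04 to -0.56). Nanog lay at 4.61, 4.65 and 4.46 in untreated and 3.0, 2.97 and 2.88 in MG132 cells. The groups were tight and apart, and the change was -1.62 ± 0.09, a 3.07-fold fall (adjusted p = 9.9e-05). Tdgf1, encoding the Nodal co-receptor Cripto, went from 4.49, 4.50 and 4.50 to 1.72, 1.81 and 1.75, a fall of -2.74 ± 0.08, or 6.66-fold, seen with all 5 of its probes. Gbx2 fell by 1.81 ± 0.10, Klf2 by 1.70 ± 0.11 and Klf4 by 1.32 ± 0.11. Sox2 went from 5.37, 5.38 and 5.28 to 4.46, 4.31 and 4.16 (-1.03 ± 0.10), and Pou5f1, encoding OCT4, from 6.73, 6.82 and 6.79 to 6.29, 6.29 and 6.25, the smaller fall (-0.51 ± 0.08, adjusted p = 0.0026). In the fit of all 12 arrays with slide and replicate blocks, Pou5f1 was not called (-0.45, adjusted p = 0.077). Dnmt3l, a co-factor of DNA methylation, fell by 1.81 ± 0.11, Sall1 by 1.47 ± 0.13 and Lin28a, which blocks the microRNA let-7, by 1.42 ± 0.11. Nr0b1, encoding DAX1, was the naive gene that rose (0.50 ± 0.11). Without untreated replicate 3, or without replicate 3 of both groups, 2 naive genes rose.

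Genes of the formative and primed epiblast, the stages that follow the naive state in development, also fell in the majority. Of 18, 12 fell and 1 rose (median -0.73). Zic5 went from -1.54, -1.61 and -2.23 to -3.66, -4.54 and -5.24 (-2.69 ± 0.41), and on the MG132 arrays it was above background on 1 of 3. Zic2 fell by 2.18 ± 0.37 and Otx2, an early factor of the formative state, by 1.42 ± 0.10. Fgf5 was the member that rose, at a low level, from -4.29, -4.31 and -4.95 to -3.08, -3.24 and -3.56 (1.22 ± 0.22). Without untreated replicate 3 or MG132 replicate 3, 2 rose, and without replicate 3 of both groups 3. Of 21 Polycomb and DNA methylation enzymes 0 rose and 13 fell (median -0.47), among them the Polycomb subunit Ring1 (-1.0 ± 0.12).

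Targets of LIF fell as a group. LIF acts through STAT3, and of 19 genes of that pathway 15 (78.9%) fell and 1 rose, with the most negative median of the signalling lists (-1.01, from -1.31 to -0.94). Socs3, the feedback inhibitor and direct STAT3 target, lay at 5.77, 5.84 and 5.67 in untreated and 3.64, 3.51 and 3.44 in MG132 cells. The groups were apart by over 2 log2 units, and the change was -2.23 ± 0.10, a 4.69-fold fall (adjusted p = 5.0e-05). Bcl3, an NF-kB co-factor and STAT3 target, fell by 1.66 ± 0.12 and Stat3 itself by 1.01 ± 0.12. Osmr, the receptor subunit for oncostatin M, was the member that rose, from background to at least 2.30-fold higher. Nodal signalling, through activin receptors and SMAD2 and SMAD3, keeps Lefty1 and Lefty2 on as inhibitors of the ligand. Lefty1 lay at 3.28, 3.52 and 3.22 in untreated and -0.51, -0.39 and -1.20 in MG132 cells. This was the largest fall of a gene with a symbol measured in both groups, at -4.04 ± 0.23, or 16.4-fold (adjusted p = 9.5e-05). Lefty2 went from 3.26, 3.48 and 3.35 to 1.0, 0.82 and 0.59 (-2.56 ± 0.13). The ligand Nodal itself lay at 4.32, 4.23 and 4.04 against 4.34, 4.25 and 4.10, with overlapping groups (0.03 ± 0.11, adjusted p = 0.84). Of 18 genes of the pathway 9 fell and 1 rose (median -0.31). BMP genes divided: of 19, 8 rose and 5 fell (median 0.34, and 0.04 with median centring). Bmp7, a ligand, rose by 2.53 ± 0.28, and Smad6, which blocks BMP receptors, fell by 2.12 ± 0.16.

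**Figure D3:**
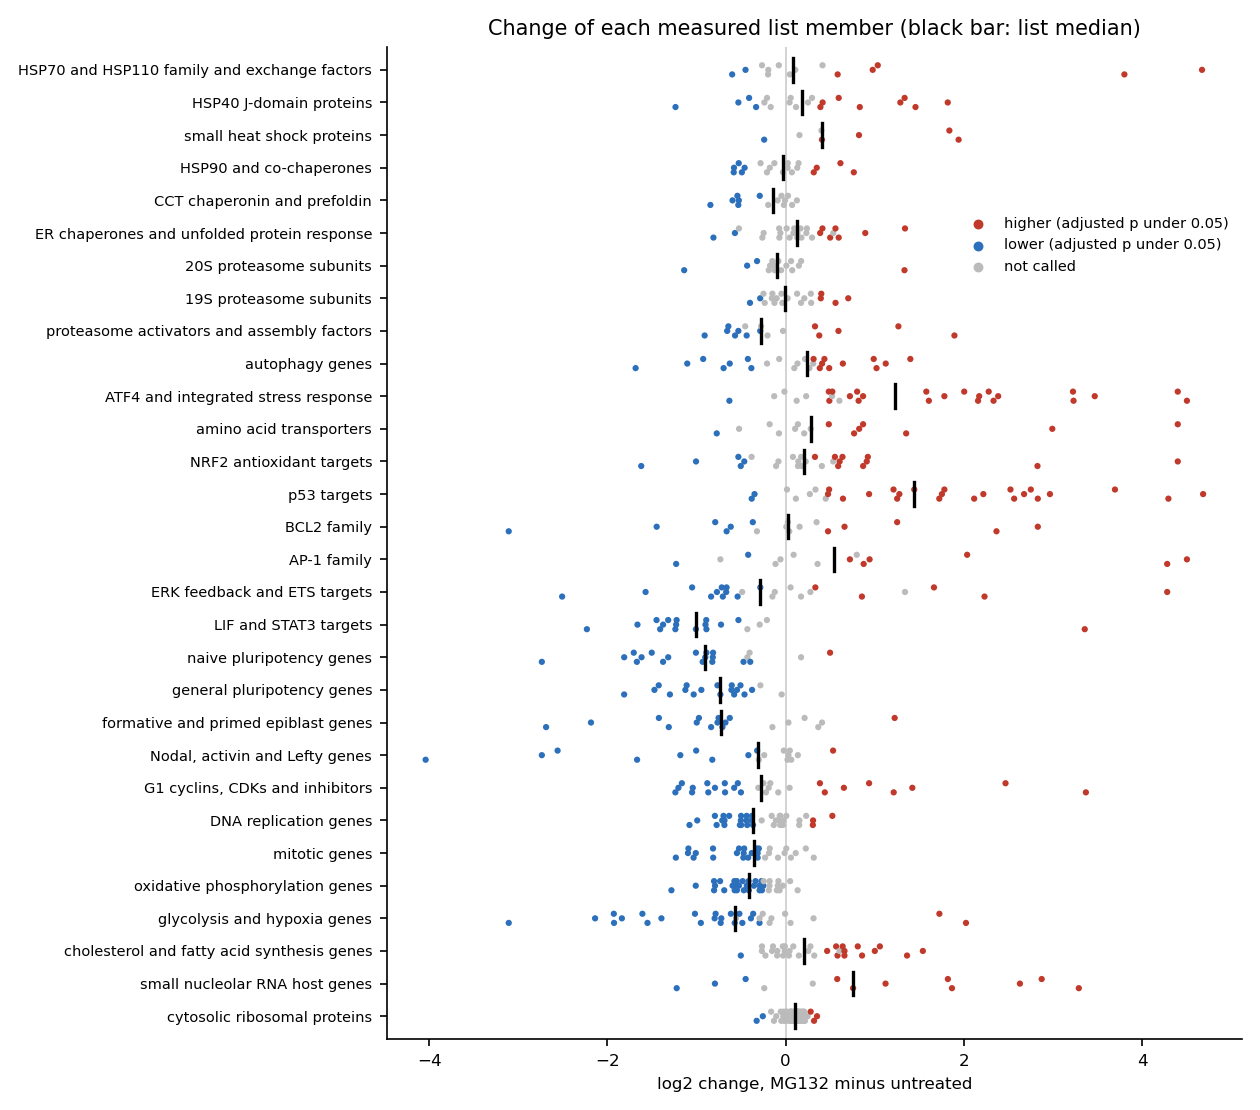
Log2 change with MG132 against untreated of each measured member of 30 gene lists, with genes called higher in red, called lower in blue and not called in grey, and the median of each list as a black bar. The p53 and ATF4 lists lie farthest to the right (medians 1.44 and 1.22) and the LIF and STAT3, naive and general pluripotency lists farthest to the left (-1.01, -0.90 and -0.73).

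Cell cycle genes fell moderately, apart from a few inhibitors. Of 28 mitotic genes 0 rose and 18 fell (median -0.35), and of 36 DNA replication genes 3 rose and 19 fell (median -0.37). Plk1, which drives entry into mitosis, went from 5.79, 5.85 and 5.72 to 4.82, 4.76 and 4.48 (-1.10 ± 0.11). Aurkb, the kinase of the chromosomal passenger complex, fell by 1.09 ± 0.09, and Gins1, a subunit of the replicative helicase, by 1.08 ± 0.09. Without untreated replicate 2, MG132 replicate 1 or MG132 replicate 2 the higher replication genes numbered 1. Of 28 G1 cyclins, cyclin-dependent kinases and their inhibitors 8 rose and 13 fell (median -0.28). Cdkn2b, encoding the CDK4 inhibitor p15, lay at -1.60, -1.43 and -1.36 in untreated and 1.86, 1.88 and 1.98 in MG132 cells, a rise of 3.37 ± 0.10, or 10.3-fold. Rb1, encoding the retinoblastoma protein, went from -0.14, -0.04 and -0.50 to 2.35, 2.21 and 2.17 (2.47 ± 0.14). Ccnd3, a D-type cyclin, fell by 1.24 ± 0.21. Both Cdkn2b and Rb1 were seen with 2 probes each, all of which rose.

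Histone RNAs moved in both directions. Of 15 replication-independent histones and related chromatin proteins 1 rose and 7 fell (median -0.35), with none higher without untreated replicate 1, untreated replicate 2 or MG132 replicate 2. H2ax, the variant phosphorylated at DNA breaks, went from 7.06, 7.20 and 7.02 to 5.25, 5.22 and 4.73 (-2.02 ± 0.16). Of 21 replication-dependent histone genes 12 rose and 4 fell (median 0.34, and 0.04 with median centring). H1f1, a linker histone, rose by 1.5 ± 0.12, and H2bc4 fell by 1.70 ± 0.18. This count was weak: 6 rose with median centring or in a fit of all 12 arrays, and 4 rose and 4 fell in that fit with slide and replicate blocks, and 2 fell without MG132 replicate 1 or MG132 replicate 2. Copies of histone genes share sequence, so single members are uncertain.

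Energy metabolism fell. Of 37 oxidative phosphorylation genes, which encode the respiratory chain and ATP synthase, 0 rose and 26 (70.3%) fell (median -0.41), and 17 fell after quantile normalization. Sdhc, a membrane anchor of complex II, went from 4.15, 4.21 and 4.27 to 2.96, 2.85 and 2.97 (-1.28 ± 0.08), and Cox7a2, of complex IV, fell by 1.01 ± 0.08. Of 31 glycolysis and hypoxia genes 2 rose and 21 (67.7%) fell (median -0.57, from -0.88 to -0.51). In the bins above a level of 0, 31.6% to 37.4% of genes fell, and neither list was matched by level. Pdk1, the kinase that keeps pyruvate out of mitochondria, lay at 4.39, 4.35 and 4.53 in untreated and 2.36, 2.30 and 2.20 in MG132 cells. The groups did not overlap and lay apart by almost 2 log2 units, and the change was -2.14 ± 0.09, a 4.40-fold fall. Hk2, hexokinase, fell by 1.61 ± 0.12. Adm, encoding adrenomedullin, a vasodilator peptide induced by hypoxia, rose (2.02 ± 0.43) from a level at which 2 of 3 untreated arrays were above background, and Pfkfb4 rose by 1.73 ± 0.20. Gapdh, a glycolytic gene often used as a reference, lay at 9.25 to 9.27 against 9.06 to 9.13 (-0.16 ± 0.08, adjusted p = 0.13), but 5 of its 6 probes fell. Its change lay between -0.46 and -0.14 over 22 settings, the main one included, and 16 of them did not call it. Median centring was among those that called it lower. Actb, the other common reference, was at 9.07 to 9.10 against 9.04 to 9.11 (-0.01 ± 0.08, adjusted p = 0.92). The groups overlapped, although median centring called it lower.

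Sterol genes rose in part. The SREBP factors, released from the ER by SCAP when sterol is low and kept there by INSIG, raise cholesterol synthesis. Of 32 genes of cholesterol and fatty acid synthesis 12 rose and 1 fell, the sterol reductase gene Tm7sf2 (-0.50 ± 0.12), with a median of 0.20 that was -0.10 with median centring, where 6 rose and 7 fell. Scap rose by 1.36 ± 0.14 and Insig1 by 1.06 ± 0.15. Without MG132 replicate 1 or 2 none fell, and without replicate 3 of both groups 16 rose and 2 fell.

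Host genes of small nucleolar RNAs rose in the majority. These hosts are spliced RNAs, mostly not translated into stable proteins, whose introns release the guides of ribosomal RNA modification. Snhg1 lay at 2.09, 2.16 and 2.35 in untreated and 5.46, 5.43 and 5.58 in MG132 cells. Both groups stood apart by over 3 log2 units, and the change was 3.29 ± 0.10, or 9.79-fold (adjusted p = 2.9e-05). Snhg12 went from 3.59, 3.73 and 3.93 to 6.52, 6.49 and 6.87 (2.87 ± 0.15) and Snhg16 from 4.0, 4.02 and 4.10 to 6.58, 6.66 and 6.76 (2.63 ± 0.09). Snhg3 fell by 1.22 ± 0.09. Of 13 hosts 8 rose and 3 fell (median 0.76, from 0.45 to 0.95 over the alternatives). Of 65 cytosolic ribosomal protein genes 3 rose and 2 fell, or 7.69% against the 48.5% of all genes, with changes from -0.33 to 0.35 and a median of 0.11. With an intensity trend and robust variance 16 rose, and with array weights 15. None was called without untreated replicate 1 or untreated replicate 2. The lower count was also 0 without untreated replicate 3, MG132 replicate 1 or MG132 replicate 2, and the higher count was 1 without MG132 replicate 1. With median centring 0 rose and 13 fell (median -0.20).

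Further transcription factors and structural genes were among the called. Klf15, a metabolic KLF factor, went from 2.24, 2.39 and 2.10 to -0.52, -0.48 and -0.75 (-2.83 ± 0.12), and Mycn, the MYC relative abundant in stem cells, from 5.21, 5.26 and 5.52 to 3.41, 3.31 and 3.47 (-1.93 ± 0.11). Of 16 genes of the MYC and MAX network 1 rose and 8 fell (median -0.46). Cxcl10, a chemokine of interferon and NF-kB, was above background on 1 of 3 untreated arrays, at -6.14, -5.87 and -4.82, and on all MG132 arrays, at -0.82, -0.80 and -0.18 (5.01 ± 0.37, and 1.87 with normexp). Of the 16 NF-kB targets and chemokines measured 3 rose and 7 fell (median -0.36). Tubulin genes moved apart: Tubb2b fell by 1.48 ± 0.10 and Tubb6 rose by 1.17 ± 0.10. Hexim1, an inhibitor of the elongation kinase P-TEFb, did not pass the test (0.01 ± 0.11, adjusted p = 0.94), with overlapping groups.

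The largest rises were mostly those of genes at low levels in untreated cells, and their size depended on the background correction. Bglap3 lay at -4.92, -4.93 and -4.59 in untreated and 0.92, 1.07 and 1.12 in MG132 cells. The change was 5.85 ± 0.13, or 57.6-fold (adjusted p = 2.3e-05). Bglap2, its neighbour in the osteocalcin cluster, rose by 5.76 ± 0.19, and since these copies are nearly identical the probes may share their RNA. Crhr2, a receptor of corticotropin-releasing hormone peptides, went from -2.26, -2.08 and -2.58 to 2.80, 2.95 and 2.99 (5.22 ± 0.15, 37.2-fold). Tbx4, a limb and lung transcription factor, rose by 5.13 ± 0.29, Ltbp2, an extracellular matrix protein, by 5.05 ± 0.12, and Ces2e, a carboxylesterase, by 4.88 ± 0.35. Dusp13, a phosphatase gene, rose by 4.74 ± 0.39, Alox5, the lipoxygenase of leukotriene synthesis, by 4.59 ± 0.15, Mlana, a melanocyte antigen, by 4.55 ± 0.39, and Tex101, a germ cell surface protein, by 4.43 ± 0.23. Tbx4 was above background on 2 of 3 untreated arrays and Bglap2, Ces2e and Dusp13 on 1 of 3, so their untreated levels are near background. With normexp the changes were 3.17 for Bglap3, 2.71 for Bglap2, 4.19 for Crhr2, 2.15 for Tbx4, 2.49 for Ltbp2, 2.06 for Ces2e, 1.72 for Dusp13, 2.41 for Alox5, 3.52 for Mlana and 3.23 for Tex101. Hspa1a, at 4.29, and Crhr2 were then the highest of the genes given with a change, so the order of the largest rises turned. The largest bounds were those of Tmprss6, a protease that regulates hepcidin (at least 29.4-fold), Fas (given above), Slc26a9, an anion transporter (at least 16.9-fold), Podn, a matrix proteoglycan (at least 14.1-fold), and Btla, a lymphocyte receptor (at least 13.9-fold). With normexp their changes were 2.27 for Tmprss6, 1.52 for Slc26a9, 1.33 for Podn and 1.46 for Btla.

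Beside Lefty1, Bnip3 and Egr1, the largest falls included the following. Ndufa4l2, a hypoxia-induced protein of the respiratory chain, went from 2.12, 2.20 and 1.53 to -1.01, -0.88 and -1.64 (-3.12 ± 0.26). Aire, known for displaying tissue antigens in the thymus, went from 2.64, 2.66 and 2.66 to -0.28, -0.28 and -0.46 (-3.0 ± 0.09). Foxr2, a forkhead factor, fell by 2.94 ± 0.48, Khdc3, an oocyte and stem cell protein, by 2.85 ± 0.62, and Msc, a bHLH repressor, by 2.68 ± 0.15. Khdc3 shows the deviation of replicate 3, at 3.74, 3.73 and 5.35 in untreated and 0.87, 0.84 and 2.54 in MG132 cells. In that gene replicate 3 was the highest of both groups. Genes that dropped to background on every MG132 array included Ppp1r3g, a glycogen phosphatase subunit (at least 7.62-fold lower), Skor1, a co-repressor (at least 7.24-fold lower), and Leng9 (at least 6.80-fold lower). With normexp the changes were -0.98 for both Ppp1r3g and Skor1, -0.85 for Leng9 and -0.87 for Foxr2.

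A second comparison asked whether MG132 changed the same RNAs when 4OHT was present, with the 3 arrays of MG132 and 4OHT together against the 3 of 4OHT alone. It shares no array with the first. All arrays with both compounds lay on slide 2 and all with 4OHT alone on slide 1, so slide and MG132 cannot be told apart there. It used only genes and probes kept in the first comparison, so a gene above background only with 4OHT was not tested. The 4OHT arrays also spread more about their group mean, with standard deviations over genes of 0.37 to 0.43 against 0.17 to 0.28 on the other arrays. A change or difference not called here is therefore not shown to be absent. Of 24402 genes tested in it, 10630 (43.6%) changed, 5798 higher (23.8%) and 4832 lower (19.8%). Of the 12032 genes that changed in the first comparison and were measured in both, 11038 (91.7%) had the same sign in the second and 7480 (62.2%) were also called in that direction. Those 7480 are 70.4% of the calls of the second comparison, and 179 were called in the opposite direction. Across genes, which are not independent replicates, the changes had a Pearson r of 0.77.

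Of the p53 targets 22 of 29 rose in each comparison, with medians of 1.44 and 2.11, and the change of 6 of them differed. Of the ATF4 list 21 of 28 rose in the first and 24 in the second (medians 1.22 and 2.14), and 6 differed. The ER list had 7 and 13 higher members of 27, of which 1 differed, and the NRF2 list 10 and 15 of 26, of which 2 differed. Bglap3 rose by 5.85 and 5.84, Crhr2 by 5.22 and 5.15, and Mdm2 by 2.68 and 2.84. Socs3 (-2.23 and -2.12) and Tdgf1 (-2.74 and -3.15) fell in both. For these 5 genes the difference between the comparisons did not pass the test.

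The changes of 1706 genes (6.55%) differed between the comparisons by limma's test of the difference. Egr1 fell by 3.0 without 4OHT and rose by 2.25 with it, a difference of -5.26 ± 0.30 (adjusted p = 3.8e-05). Lefty1 fell without it and had a change of 1.85 with it that did not pass the test (adjusted p = 0.065), a difference of -5.89 ± 0.76. Dusp2 and Spry4, which moved by 2.23 and -2.51 without 4OHT, had changes of -0.26 and -0.47 with it, neither past the threshold. Gbx2 fell further with 4OHT (-5.02 against -1.81) and Nanog less far (-0.63 against -1.62). Some stress genes rose further with 4OHT: Hspa1a by 6.27 against 4.67, Ddit3 by 5.10 against 3.23 and Cdkn1a by 3.01 against 0.94.

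**Figure D4:**
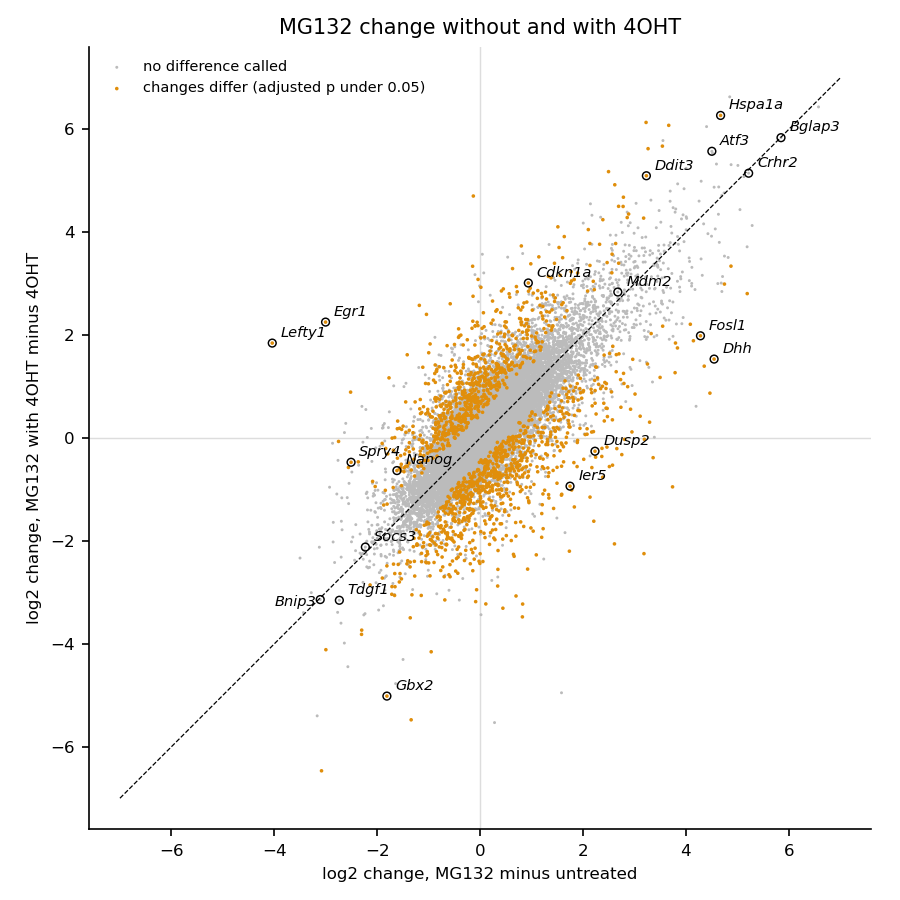
Log2 change with MG132 in the presence of 4OHT (vertical) against that without 4OHT (horizontal) for the 24402 genes tested in both, with the dashed line marking equal changes and genes whose changes differ (adjusted p under 0.05) in orange. Most genes follow the line (r = 0.77), whereas Egr1 and Lefty1 lie in the upper left and Dusp2, Ier5 and Dhh below the line.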

How the data were processed

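Total RNA was labelled with Cy3 and hybridised to 1-colour Agilent mouse arrays, 12 in the series, of which 6 enter the main comparison. Per the file headers, the deposited processed signal is a background-corrected intensity made by Agilent Feature Extraction 11.0.1.1, not normalized between arrays. A table of the whole series deposited by the authors held the same intensity values, with a largest difference of 0 over 59305 spots. No pair of arrays was identical and no spot was saturated.

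From these values log2 intensity minus the 75th percentile over non-control probes was computed per array. Spots of a probe were averaged, and a probe was kept, as 33337 of 56605 were, if every array of 1 group or of both showed it well above background. Each gene took the values of its brightest probe, by the mean of the 6 arrays. Symbols came from RefSeq (GRCm38.p6) through probe accessions, for 32994 probes (58.3%). Of 26034 genes tested 15617 had a symbol, and 162 genes had probes called in both directions. Groups were compared with limma 3.58.1 (lmFit and eBayes) in R 4.3.3 on the 6 arrays alone, with 4 residual and 2.31 prior degrees of freedom, and with Benjamini-Hochberg adjustment. With 3 arrays against 3, an exact permutation test of a single gene cannot go below p = 0.1. The difference between the comparisons with and without 4OHT was an interaction contrast over all 12 arrays. The code was tested on simulated data.

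The members and the 59 gene lists (1256 genes, 1197 tested) were chosen with earlier results of these data known. Lists were described by counts and medians and not tested. Some genes belong to several lists, such as Atf3 to the ATF4 and AP-1 lists and Fas to the p53 and caspase lists. The lists are therefore not independent of each other. Genes were named by a rule: the 15 largest rises and 15 largest falls whose groups did not overlap, the top 5 bounds among rises and among falls, from every list at most 3 members that were called and changed most, and 20 genes set by name. Asns, Bbc3, Bmf, Ccnd3, Chac1, Dnajb14, Dusp6, Etv1, Fgf5, Fos, Gdf15, Hk2, Hsp90b1, Hspa4, Hspa5, Hspa8, Hspb1, Junb, Ndrg1, Nodal, Nr0b1, Nupr1, Perp, Pfkfb4, Rrm2b, Slc7a3, Snhg3, Stat3, Tm7sf2, Twist1 and Zfp42 fall outside the rule and were chosen after their values were seen. Alternatives covered scaling, background correction, the filter, the probe of a gene, blocks, variance models and left-out arrays. Some genes that the rule names are not reported here.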

Additional observations from a re-analysis of the deposited data

Results flagged for a closer look

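Of the 167 genes named, 32 drew attention because their change with MG132 differed between cells without and with 4OHT by limma's test of the difference over 12 arrays (adjusted p under 0.05). The background share of such genes was 6.55%. Each value below is the log2 change without 4OHT minus the log2 change with it. In the comparison with 4OHT, slide and MG132 cannot be told apart, and no explanation was tested.

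In all, 8 genes had changes of opposite sign in the 2 comparisons among those measured in both. The difference was -5.89 ± 0.76 (SE) for Lefty1 and -5.26 ± 0.30 for Egr1 (adjusted p = 0.0022 and 3.8e-05). It was 2.68 for Ier5, 2.49 for Dusp2 and 1.63 for Fgf5, which rose without 4OHT and had changes of -0.94, -0.26 and -0.41 with it. The difference was 3.36 for Thy1, 1.31 for Hsf4 and 1.21 for Eomes, which rose without 4OHT and had changes of -2.27, -0.54 and -0.44 with it.

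Further signalling and immediate-early genes were Spry4 (-2.04), Fosl1 (2.30), Fos (-1.43), Myc (1.14), Bcl3 (1.40), Lefty2 (-1.99) and Dhh (3.01), which encodes a hedgehog ligand. Osmr (2.35) did not pass the filter on dim probes in the second comparison. Among stem cell and epiblast genes the differences were 3.20 for Gbx2, 1.02 for Otx2, -0.98 for Nanog, 0.67 for Dnmt3l and 0.60 for Sox2.

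Most stress genes in this set rose further with 4OHT. The differences were -2.91 for Gdf15, -2.08 for Cdkn1a, -1.87 for Ddit3, -1.60 for Hspa1a, -0.99 for Dnajb1, -0.65 for Hmox1 and -0.45 for Hspa2, whereas Perp rose less (1.44). Of the remaining genes, Aire (1.12) and Pdk1 (0.72) fell further with 4OHT. Skor1 (3.38) had changes of -3.08 without 4OHT and -6.47 with it. Since it was at background on every MG132 array without 4OHT, its fall there is known only as a bound, and the falls cannot be ranked.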

How the results depend on the processing

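The 6 arrays are few, and calls of small changes depend on the scaling. The called count was 12616 and stayed within 1.5 times of that under each alternative except a 2-fold minimum, which left 4201 genes, 2845 higher and 1356 lower. Centring arrays on their median gave 4031 higher and 10471 lower. Without single arrays, or without replicate 3 of both groups (chosen after seeing the data), the called genes ranged from 9924 to 13620, the higher from 5312 to 6980 and the lower from 4612 to 6640. Without a filter on dim probes 59.1% of called genes were higher.

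The labels share replicate numbers, and the deviations of same-numbered arrays correlated at 0.05, 0.17 and 0.37 for replicates 1, 2 and 3. The rule asked for a minimum correlation in every pair, which replicate 1 did not reach, so the main fit took no pairs. Pairing was thus not shown to be absent. Where replicate 3 was displaced alike in both groups, as in Khdc3, the SE includes that displacement. With a replicate block 13378 genes were called, 6936 higher and 6442 lower. Of the 167 genes named, none that was called changed direction under an alternative in which it was measured. In 16 of them a call was lost under at least 1 alternative: Atf4, Chac1, Dusp6, Hspa4, Hspa5, Hspb1, Nfe2l1, Nr0b1, Pou5f1, Psmb5, Rrm2b, Slc7a3, Tm7sf2, Trp53, Twist1 and Ubb. Gapdh, Actb and Hsp90b1 passed the threshold only under alternatives. The causes were not tested. Signal near background limits 314 higher and 259 lower genes to bounds.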
